A study of Mus musculus with 6 samples.

Results

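The Reg genes encode small secreted C-type lectins of the gut and pancreas, and 6 of them were examined here, Reg1, Reg2, Reg3a, Reg3b, Reg3g and Reg4. They were taken from the platform annotation as the probe sets whose only gene symbol was one of these names, which gave 7 probe sets for 6 genes of 18193 genes in all. Reg3b had 2 probe sets and each other gene had 1. All 6 genes passed a filter on mean log2 intensity that kept 13042 genes. Each array held RNA of the whole small intestine, pooled from several mice. The mice labelled KO carried L/L alleles of Fitm2 (FIT2, an endoplasmic reticulum protein of lipid droplet formation) together with ROSA26CreERT2, a tamoxifen-activated Cre recombinase expressed from a locus that is active in most cell types. The control mice labelled L/L carried the alleles without that Cre. All groups were given tamoxifen at 100 µg per g intraperitoneally on days 1, 2 and 3. Tissue was taken on day 2 (7 KO and 6 L/L mice), day 3 (6 KO and 6 L/L) or day 5 (7 KO and 8 L/L), and the labels do not state which doses the mice of days 2 and 3 had received.

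Reg proteins are released into the gut lumen, where those of the Reg3 group bind bacterial surfaces. Reg3g kills Gram-positive bacteria and helps to keep a bacteria-poor zone along the mucosa, and Reg3b acts on Gram-negative bacteria. Enterocytes and Paneth cells raise Reg3b and Reg3g when microbes are sensed through Toll-like receptors and MyD88, and when interleukin-22 activates STAT3. Reg1 and Reg2 are best known as pancreatic stone proteins that are induced by tissue injury, and Reg4 marks secretory cells of the intestinal epithelium.

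The stretches just upstream of the 6 genes are shown because 5 of these genes lie in a cluster. Of those 5, 4 were at least 2-fold lower in KO on day 5, without a test, as were 0.882% of all genes. Whether the upstream bases bear on these differences was not tested. In the RefSeq gene order of mouse chromosome 6 the cluster ran Reg3b, Reg3d, Reg3a, Reg2, Reg1, the pseudogene Gm52853 and Reg3g, whereas Reg4 lay on chromosome 3. Each line gives the 140 bases before the annotated start in build GRCm38.p6, from RefSeq, 5′ to 3′ on the gene's own strand. Capitals mark TATAAA, the STAT motif TTCNNNGAA or the NF-kB motif, searched on both strands. The windows are chr6:78425843-78425982 (plus strand) for Reg1, chr6:78405015-78405154 (plus) for Reg2, chr6:78380569-78380708 (plus) for Reg3a, chr6:78370745-78370884 (plus) for Reg3b, chr6:78468875-78469014 (minus) for Reg3g and chr3:98222016-98222155 (plus) for Reg4.
Reg1: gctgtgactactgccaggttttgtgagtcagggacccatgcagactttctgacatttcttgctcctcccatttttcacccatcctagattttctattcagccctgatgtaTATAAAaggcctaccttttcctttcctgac
Reg2: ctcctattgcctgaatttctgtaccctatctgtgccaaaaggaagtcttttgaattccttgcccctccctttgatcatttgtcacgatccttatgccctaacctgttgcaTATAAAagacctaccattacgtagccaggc
Reg3a: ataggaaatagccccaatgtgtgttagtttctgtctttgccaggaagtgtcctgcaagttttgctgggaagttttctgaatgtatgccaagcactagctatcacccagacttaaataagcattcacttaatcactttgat
Reg3b: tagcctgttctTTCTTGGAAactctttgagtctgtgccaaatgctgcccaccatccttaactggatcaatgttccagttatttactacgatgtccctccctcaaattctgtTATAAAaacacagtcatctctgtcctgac
Reg3g: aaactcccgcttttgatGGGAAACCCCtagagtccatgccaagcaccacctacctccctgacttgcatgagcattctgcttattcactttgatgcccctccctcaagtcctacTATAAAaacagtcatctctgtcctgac
Reg4: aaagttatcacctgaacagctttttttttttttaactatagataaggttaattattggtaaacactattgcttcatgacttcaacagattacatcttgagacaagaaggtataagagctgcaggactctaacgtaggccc

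TATAAA was found in the windows of Reg1, Reg2, Reg3b and Reg3g, at -30 to -25 from the annotated start in Reg1 and Reg2, -29 to -24 in Reg3b and -27 to -22 in Reg3g, and in 7.19% of 32467 distinct windows of this length from all genes. The STAT motif was found upstream of Reg3b alone among the 6, at -129 to -121, and in 3.76% of all windows. The NF-kB motif was found upstream of Reg3g alone among the 6, at -123 to -114, where it reads on both strands, and in 4.28% of all windows. None of the 3 motifs lay in the windows of Reg3a and Reg4. The end of the Reg3a window resembles a stretch of the Reg3g window that lies ahead of TATAAA. The lack of TATAAA in Reg3a may thus depend on where its start is annotated, and bases past that start were not searched. In pairwise end-to-end alignment the windows of Reg3b and Reg3g were identical in 69.0% of alignment columns and those of Reg1 and Reg2 in 59.9%. The other pairs lay between 44.3% and 51.7%, and windows whose annotated starts are offset can score low in such an alignment.

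Fitm2 intensity was 123, 127 and 120 in KO on days 2, 3 and 5, against 193, 223 and 211 in L/L. The mean log2 difference was -0.76 ± 0.10 (SD over 3 days, adjusted p = 0.125). Esr1, whose human counterpart gives CreERT2 its ligand-binding domain, was 7.85-fold higher in KO in its brightest probe set (adjusted p = 0.0113), while the mean of its probe sets differed by 1.10 on the log2 scale (adjusted p = 0.138). Without day 3 the brightest probe set did not pass (adjusted p = 0.599). Genes of absorptive enterocytes were bright, with summed intensities of 210922 to 226333 in KO and 212706 to 224816 in L/L over 17 genes. Xist, the RNA that coats the silent X chromosome in female cells, was 1090, 3030 and 1398 in KO on days 2, 3 and 5 and 2433, 3126 and 3052 in L/L, so it was more than 2-fold lower in KO on days 2 and 5 and nearly level on day 3. The 3 measured Y-linked genes, Eif2s3y, Kdm5d and Uty, were all higher in KO on days 2 and 5 and lower on day 3. Reg3b and Reg3g differed least on day 3 as well, and the part of the pools' sex makeup in the Reg results was not tested. With 1 pooled array for each genotype and day, no p-value rests on scatter among mice. The p-values over the 3 days rest on the scatter of the KO minus L/L difference among days. Those for the change of that difference with day rest on its departure from a line. Both also borrow from a variance shared over all genes (prior degrees of freedom 3.03 and 4.76, against 2 and 1 residual). The number of arrays limits their precision. In bulk RNA, fewer cells of a type and less RNA per cell cannot be told apart.

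Across the 3 days, no Reg gene passed the test between KO and L/L, yet 4 of the 6 were at least 2-fold lower in KO on day 5 and 1 was at least 2-fold higher. Reg1, Reg3a, Reg3b and Reg3g were 4.03-, 4.07-, 2.93- and 3.85-fold lower in KO on that day, and Reg4 was 2.91-fold higher. On day 5, 0.882% of all genes were 2-fold or more lower and 1.28% were 2-fold or more higher. None of the 6 was 2-fold or more lower on day 2, when 0.0307% of all genes were, or on day 3, when 0.092% were. A single day has no replicate and no test.

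**Figure D1:**
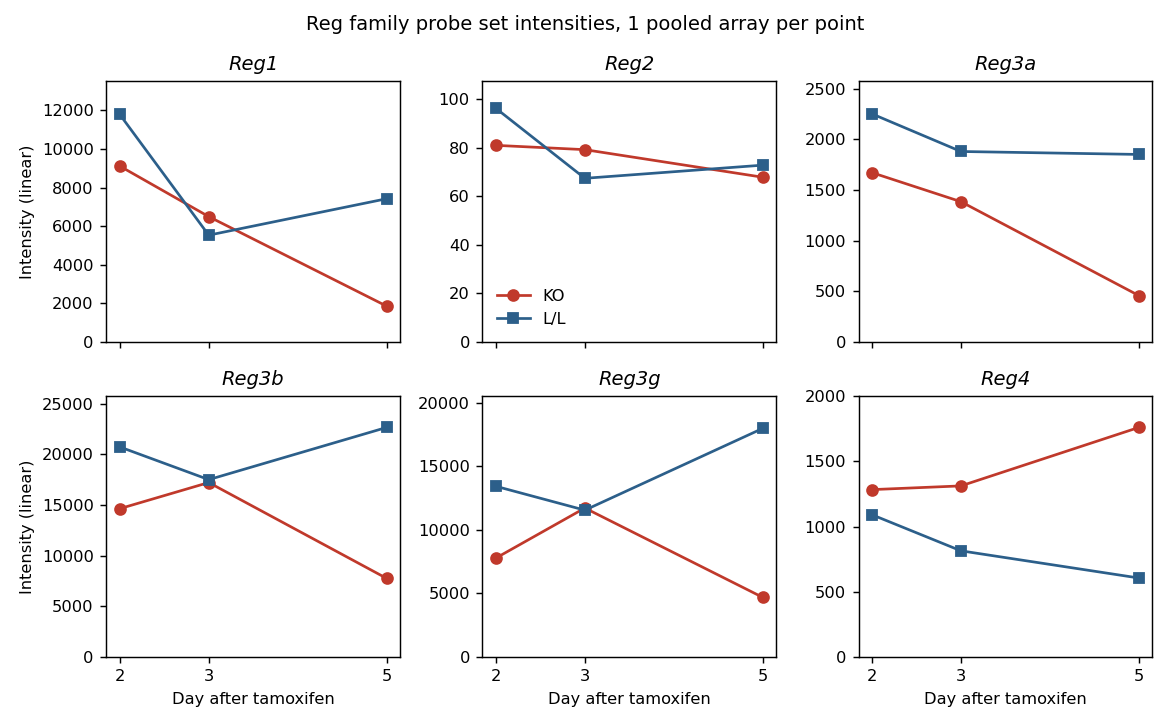
Linear probe set intensity (vertical axes, each from 0) against day after tamoxifen (horizontal axes) for the 6 Reg genes, with KO as red circles and L/L as blue squares; each point is 1 array of pooled RNA, so there are no error bars. On day 5 Reg1, Reg3a, Reg3b and Reg3g lie far lower in KO, Reg4 lies higher in KO, and Reg2 differs little.

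Reg3g, the lectin active on Gram-positive bacteria, was far lower in KO on day 5. Its intensity was 7771, 11717 and 4671 in KO on days 2, 3 and 5, against 13432, 11548 and 18000 in L/L. KO was lower on days 2 and 5, the genotypes were level on day 3, and the KO array of day 3 lay above the L/L array of that day, so the groups overlapped. The log2 difference was -0.79, 0.02 and -1.95 by day, a mean of -0.90 ± 0.99 (SD over 3 days; SE 0.36; adjusted p = 0.409). Without day 5 the mean was -0.38 and without day 3 it was -1.37.

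Reg3b behaved much like Reg3g. Its brighter probe set read 14622, 17205 and 7730 in KO and 20724, 17490 and 22652 in L/L. All 3 KO arrays lay below all 3 L/L arrays, although on day 3 L/L was 1.02-fold above KO. The log2 difference was -0.50, -0.02 and -1.55 by day, a mean of -0.69 ± 0.78 (SE 0.29, adjusted p = 0.41). The second Reg3b probe set gave the same order of arrays within each day, with 12780, 13131 and 8430 in KO and 15793, 13751 and 19214 in L/L. Its differences were smaller, at -0.31, -0.07 and -1.19, a mean of -0.52. The brighter probe set is of the _s_at type, whose probes can match more than 1 similar transcript. Whether it binds RNA of other Reg genes was not tested. The highest intensity of any probe set on any array was 31146, so Reg3b was read near the top of the range, where arrays can compress differences, and this was not tested. Without day 5 the mean of the brighter probe set was -0.26 and without day 3 it was -1.03.

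Reg3a, a further lectin of the Reg3 group, had KO below L/L at all 3 times. The arrays read 1671, 1384 and 455 in KO and 2252, 1880 and 1851 in L/L. The groups did not overlap, and the KO array of day 5 stood well below the other 5 arrays. The log2 difference was -0.43, -0.44 and -2.03, a mean of -0.97 ± 0.92 (SE 0.34, adjusted p = 0.394). Without day 5 it was -0.44, the most even pair of days among the lower genes, and it did not pass there either (adjusted p = 0.281).

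Reg1, a pancreatic stone protein that is also made in the small intestine, depended most on day 5. It read 9116, 6491 and 1840 in KO, against 11798, 5528 and 7422 in L/L. KO was lower on days 2 and 5 and higher on day 3, and the groups overlapped. The log2 difference was -0.37, 0.23 and -2.01, a mean of -0.72 ± 1.16 (SE 0.43, adjusted p = 0.484), and without day 5 the mean was -0.07. Without day 3 it was -1.19.

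Reg2, the close relative of Reg1, was dim and differed little. Its intensity was 80.9, 79.1 and 67.7 in KO and 96.2, 67.3 and 72.7 in L/L, where the filter threshold was 38.9. The groups overlapped, with KO higher on day 3 and lower on the other days. The mean log2 difference was -0.04 ± 0.25 (adjusted p = 0.883), with a 95% interval of -0.31 to 0.24, so the fit left room for a modest difference either way. Reg1 and Reg2 are similar in sequence, and whether their probe sets bind each other's RNA was not tested.

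Reg4, the marker of secretory cells, was the one member higher in KO on each day. It read 1283, 1312 and 1762 in KO, against 1091, 814 and 605 in L/L. Every KO array lay above every L/L array, and the gap widened from day to day. The log2 difference was 0.23, 0.69 and 1.54, a mean of 0.82 ± 0.66 (SE 0.25, adjusted p = 0.381). Without day 5 the mean was 0.46.

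**Figure D2:**
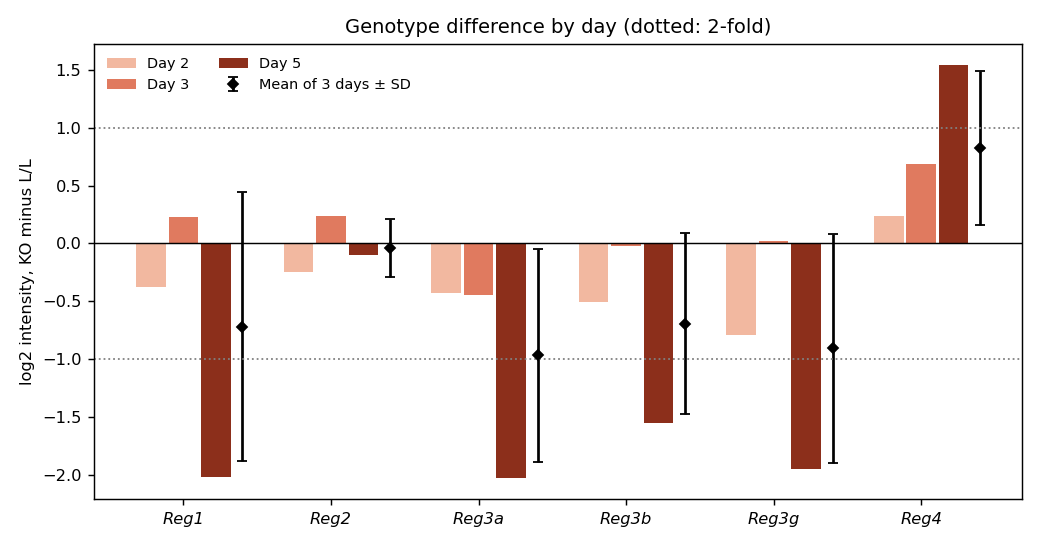
KO minus L/L difference in log2 intensity (vertical axis) for each Reg gene (horizontal axis), with bars for days 2, 3 and 5 and a diamond for the mean of the 3 days ± SD; dotted lines mark 2-fold. The day 5 bars of Reg1, Reg3a, Reg3b and Reg3g lie past 2-fold on the lower side and that of Reg4 on the higher side.

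Counted together, 2 of the 6 genes (Reg3a and Reg3b) were lower in KO on each day, as were 17.4% of all genes, and 1 (Reg4) was higher on each day, as were 22.1%. All KO arrays lay below all L/L arrays for the same 2 genes and for 5.66% of all genes, and above them for Reg4 and for 7.48% of all genes. The limma test over the 3 days called 0 of the 6 genes, with 2 of them (Reg3a and Reg4) at an unadjusted p under 0.05, as were 12.3% of all genes. Over all genes it called 0.023% higher and 0.0% lower.

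The change of the genotype difference with day was the one test that a Reg gene passed. The log2 difference of Reg4 rose by 0.43 per day (SE 0.05; adjusted p = 0.0373), with a positive step from day 2 to day 3 and from day 3 to day 5. Over all genes the slope was called as rising for 0.644% and as falling for 0.583%. Without the intensity filter, where the slope test called 0 genes in all, Reg4 had an adjusted p of 0.169, and it passed in the other 6 of 7 alternatives. Reg3a had a slope of -0.57 per day (SE 0.09; adjusted p = 0.06) and passed in 3 of 7 alternatives. The slopes of Reg1, Reg3b and Reg3g were -0.63, -0.41 and -0.47 per day (adjusted p = 0.16, 0.202 and 0.271), and that of Reg2 was 0.02 (adjusted p = 0.945). Of the 6 genes, 5 had a slope with an unadjusted p under 0.05, as did 18.4% of all genes. This test has 1 residual degree of freedom per gene, and with a day left out it has none. Its SEs thus rest more on the variance shared over all genes (prior 4.76) than on a gene's own scatter.

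Within each genotype the days can be read against day 2, without a test. In KO, Reg1 was 4.95-fold and Reg3a 3.68-fold lower on day 5 than on day 2, and these 2 of the 6 genes passed 2-fold, where 1.75% of all genes did in either direction. Reg3b and Reg3g were 1.89-fold and 1.66-fold lower on day 5 than on day 2 in KO, and Reg4 was 1.37-fold higher. On day 3, Reg3g in KO stood 1.51-fold above its day 2 level.

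In L/L, Reg3a had the same order of days as in KO, highest on day 2 and lowest on day 5. Its L/L arrays of days 3 and 5 were nearly level, with day 5 minus day 3 at -0.02 on the log2 scale. That sign turned with median centring (0.05) and cyclic loess (0.02). Reg1 was 2.13-fold lower on day 3 than on day 2, the 1 member past 2-fold in that pair, where 0.199% of all genes were past it in either direction. On day 5 no member was past 2-fold from day 2 in L/L, against 0.414% of all genes. There Reg3g was 1.34-fold and Reg3b 1.09-fold higher than on day 2, while Reg3a was 1.22-fold, Reg1 1.59-fold and Reg4 1.80-fold lower. For Reg3b, Reg3g and Reg4 the KO and L/L arrays of day 5 thus stood on opposite sides of their own day 2 levels, which already differed by -0.50, -0.79 and 0.23 on the log2 scale. For Reg1 and Reg3a both genotypes were lower than on day 2, KO by more.

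**Figure D3:**
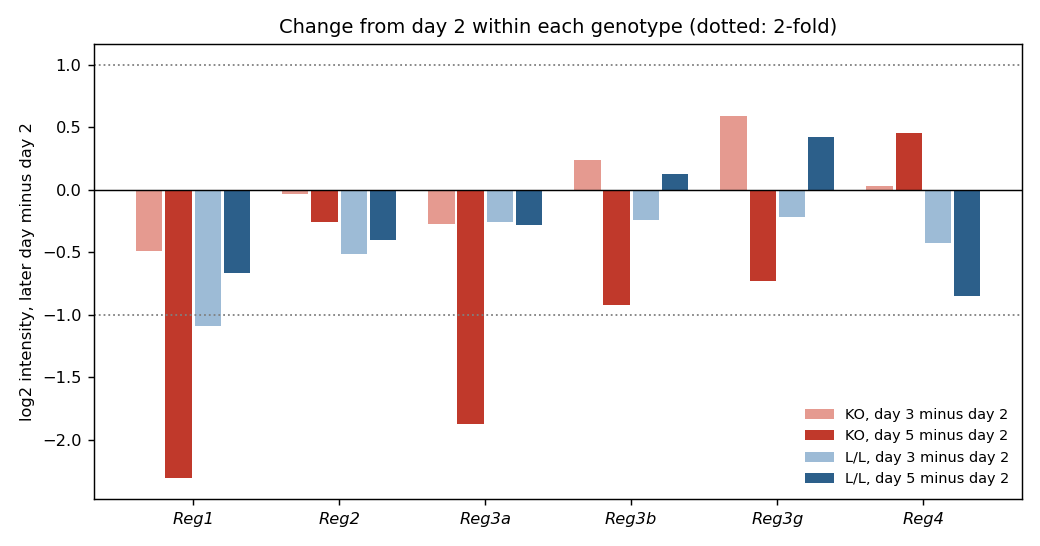
Log2 intensity of the later day minus day 2 (vertical axis) for each Reg gene (horizontal axis), with red bars for KO and blue bars for L/L, pale for day 3 and dark for day 5; each bar is the difference of 2 arrays, and dotted lines mark 2-fold. Reg1 and Reg3a in KO on day 5 and Reg1 in L/L on day 3 lie past 2-fold.

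Reg3d, the remaining gene of the chromosome 6 cluster and no member of the set, was dim, at 59.8, 56.2 and 42.3 in KO against 71.5, 64.6 and 81.6 in L/L. KO was lower on each day, with a mean log2 difference of -0.47 ± 0.42 (adjusted p = 0.394), or -0.23 without day 5. Extl3, which encodes a proposed receptor of Reg proteins, differed by 0.12 ± 0.20 (adjusted p = 0.567), and by 0.00773 without day 5.

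The pathways that drive Reg3 genes were read from gene lists, beside medians over all genes of 0.01, -0.01 and 0.02 on days 2, 3 and 5. Some genes, such as Socs3, Lcn2 and Cd14, stand in several lists, so the lists are not independent. The counts of list genes at an unadjusted p under 0.05 stand beside 12.3% of all genes. Those of list genes higher or lower in KO on each day stand beside 22.1% and 17.4% of all genes. Every slope call named for a list gene was lost without the intensity filter. Of 12 cytokines listed, 10 had a single-gene probe set and 5 were above the filter, with medians of -0.02, -0.02 and 0.02. Il22 itself and Il17f had no such probe set, so IL-22 RNA was not measured here. None passed over the 3 days by limma, with 1 at an unadjusted p under 0.05. Lif, an IL-6 family cytokine, differed by 0.43 (0.22, 0.27 and 0.80 by day), and by 0.24 without day 5. Il18, an epithelial cytokine, differed by -0.17, with -0.74 on day 5, and its mean was 0.12 without that day and -0.38 without day 3. The probe sets of Il6, Il17a and Il23a were below the filter, at no more than 24.1 on any array.

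Receptors and signalling proteins of the IL-22 and IL-6 families had medians of 0.02, 0.03 and 0.24 over 14 genes of 17. None passed over the 3 days (4 at an unadjusted p under 0.05 by limma), and 5 were higher and 2 lower in KO on each day. The oncostatin M receptor gene Osmr differed by 0.48 and Il22ra1, the IL-22 receptor subunit of epithelial cells, by 0.34. Il22ra1 stood at 307, 360 and 244 in KO and 269, 245 and 203 in L/L, higher in KO on each day and most on day 3, by 0.55 on the log2 scale.

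Microbial sensing genes of the Toll-like receptor and MyD88 pathway had medians of 0.03, 0.08 and 0.35 over 18 genes of 24. None passed over the 3 days (4 at an unadjusted p under 0.05 by limma), and 7 were higher in KO on each day and 0 lower on each day. Cd14, the lipopolysaccharide co-receptor, differed by 0.39, by 0.13 without day 5 and by 0.64 without day 2. The adaptor gene Tirap differed by 0.31, and by 0.20 without day 5. The slope of Tlr1 rose by 0.57 per day (adjusted p = 0.0246), but 3 of its arrays were below the filter threshold, with 24.2, 38.8 and 67.5 in KO and 41.3, 47.6 and 35.9 in L/L, and with an offset of 32 added before log2 the slope was 0.32.

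Genes raised by IL-22 or STAT3 did not move as one. Their medians were -0.00, -0.10 and 0.31 over 9 genes of 18, and none passed over the 3 days (2 at an unadjusted p under 0.05 by limma). The slope of Saa3, a serum amyloid, rose by 1.08 per day (adjusted p = 0.00876), with intensities of 443, 680 and 1332 in KO and 477, 406 and 156 in L/L. That of Dmbt1, a mucosal scavenger glycoprotein, fell by 1.26 per day (adjusted p = 0.0373), with 5212, 4131 and 485 in KO and 6568, 6767 and 7388 in L/L. The Dmbt1 call was also lost with trend and robust eBayes (adjusted p = 0.195) and with days coded by order (adjusted p = 0.067). On day 5 Dmbt1 was lower in KO by -3.93 and Saa3 higher by 3.09 on the log2 scale. Lcn2, lipocalin 2, was higher in KO by 0.39, 0.46 and 0.53 (adjusted p = 0.301), with its L/L array of day 5 just below the filter threshold, and by a mean of 0.46, or 0.30 with an offset of 32 added before log2. Lbp, the lipopolysaccharide-binding protein, differed by 0.29, by 0.0595 with the mean of its probe sets and by 0.16 without day 5.

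Other secreted defence proteins had medians of 0.03, 0.27 and 0.61 over 14 genes of 25, and none passed over the 3 days (6 at an unadjusted p under 0.05 by limma). In 8 of the 14 KO was higher on each day and in 2 lower on each day. Itln1, an intelectin of Paneth and goblet cells, differed by 0.83 and Ang4, a Paneth cell ribonuclease, by 0.62, or 0.40 without day 5. The slope of lactoferrin, Ltf, rose by 0.43 per day (adjusted p = 0.0373). That of Ccl28, a mucosal chemokine with antimicrobial activity, fell by 0.46 per day (adjusted p = 0.0454) in its brightest probe set, which read 194, 190 and 91.5 in KO and 210, 232 and 249 in L/L. With the mean of its probe sets the Ccl28 slope was -0.12 (adjusted p = 0.198), and with days coded by order it did not pass either (adjusted p = 0.0755).

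**Figure D4:**
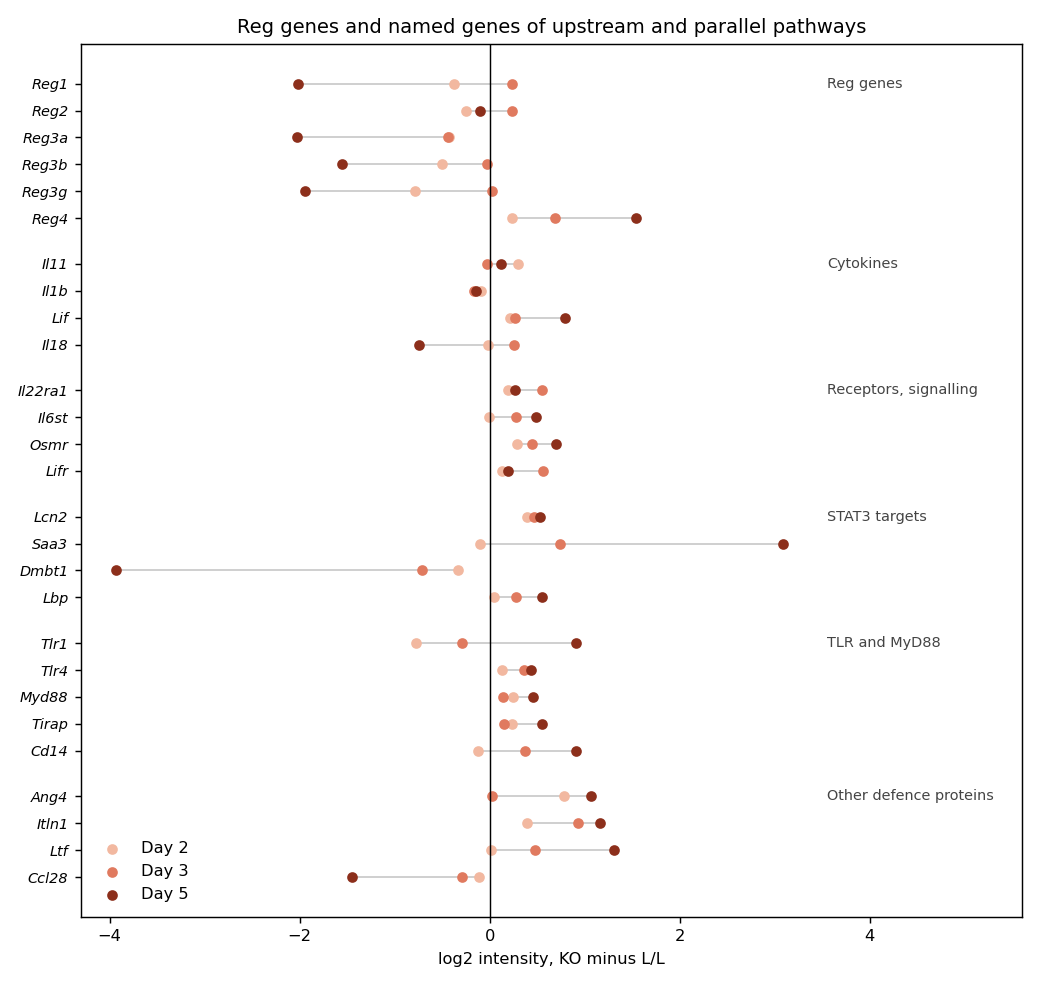
KO minus L/L difference in log2 intensity (horizontal axis) on days 2, 3 and 5 (pale to dark points) for the Reg genes and for named genes of 5 lists (vertical axis), 1 point per pair of arrays, with a grey line spanning the 3 days. Among the genes drawn, Dmbt1, Ccl28 and Il18 lie lower in KO on day 5 as Reg1 and the Reg3 genes do. Il1b lies slightly lower (-0.14), and Saa3 lies highest.

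Markers of the cells that make Reg proteins were read by list. Paneth cell genes had medians of 0.13, 0.45 and 1.07 over 8 genes of 21, with summed intensities of 32537 to 53237 in KO and 24084 to 35322 in L/L. None passed over the 3 days (5 at an unadjusted p under 0.05 by limma), and the slope of 1, the defensin gene Defa31, rose by 3.42 per day (adjusted p = 0.00876), a call lost with trend and robust eBayes (adjusted p = 0.144). It stood at 2772, 8196 and 10116 in KO and 10152, 6213 and 35.3 in L/L, where the L/L array of day 5 was below the filter threshold. Defensin genes are near-identical copies, so which of them this probe set reads is uncertain. The L/L sum of the Paneth list was lowest on day 5, as Defa31 was. Pla2g2a read 569, 1382 and 230 in KO and 1397, 478 and 109 in L/L. On day 2, 2 of the 8 Paneth genes were 2-fold or more lower in KO, as were 0.0307% of all genes. On day 5, 5 were 2-fold or more higher, as were 1.28%. Lyz1, Mmp7, Ang4, Itln1 and Pla2g2a also stand in the list of other defence proteins. Absorptive enterocyte genes had medians of 0.02, 0.00 and -0.06 over 17 genes of 19, with none past the test (0 at an unadjusted p under 0.05 by limma).

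Reg4 is found in secretory cells, whose markers were read beside it. For enteroendocrine genes the list medians were -0.00, 0.22 and 0.44 by day (18 measured of 19), with summed intensities of 12030 to 15883 in KO and 9547 to 11885 in L/L. None passed over the 3 days (4 at an unadjusted p under 0.05 by limma). The slopes of 4 rose, those of Chga (0.36 per day, adjusted p = 0.0469), Chgb (0.33, adjusted p = 0.0454), Gcg (0.33, adjusted p = 0.0454) and Gip (0.35, adjusted p = 0.0454), which encode 2 granins and 2 gut hormones. These 4 calls were lost with days coded by order too (adjusted p = 0.0795, 0.0681, 0.0689 and 0.0689), and each passed in 5 of 7 alternatives. Goblet cell genes had medians of 0.03, 0.25 and 0.12 over 13 genes of 13, with summed intensities of 96737 to 101701 in KO and 85201 to 95336 in L/L. None passed over the 3 days (3 at an unadjusted p under 0.05 by limma), and Spink4 differed by 0.47. The part of cell makeup in the Reg4 slope was not tested.

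Pancreatic tissue also makes Reg proteins, Reg1 and Reg2 among them. Acinar genes were dim, with 11 of 25 above the filter, and were summed to 1755 to 1922 in KO and 1306 to 1603 in L/L. Their medians were 0.02, 0.44 and -0.07 by day, so sum and median differed in sign on day 5. None passed over the 3 days (2 at an unadjusted p under 0.05 by limma). The largest mean difference was that of Clps, a colipase gene (0.61, adjusted p = 0.341), which read 643, 744 and 795 in KO and 472, 530 and 429 in L/L and made up much of the sum.

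Reg genes also vary along the gut. Proximal genes had medians of -0.14, 0.01 and 0.01 over 14 genes of 17 and distal genes of 0.01, 0.08 and -0.07 over 17 of 17, with none past the test over the 3 days (2 and 3 at an unadjusted p under 0.05 by limma). The slopes of 2 proximal genes rose, Ada (0.46 per day, adjusted p = 0.0373) and Cybrd1 (0.46, adjusted p = 0.0414), and that of Bche fell by 0.44 per day (adjusted p = 0.0373). Cybrd1 passed in 3 of 6 alternatives. Myeloid genes had medians of 0.11, 0.32 and 0.82 over 14 of 16, with 2 slopes rising, those of Lyz2 (0.43, adjusted p = 0.0373) and Cd68 (0.35, adjusted p = 0.0454), whose L/L array of day 5 was below the filter threshold and whose call was lost with days coded by order (adjusted p = 0.0603). Lymphocyte and innate lymphoid genes, which include the cells that release IL-22, had medians of -0.05, 0.12 and -0.07 over 9 of 16. None of the myeloid or lymphoid genes passed over the 3 days (7 and 0 at an unadjusted p under 0.05 by limma).

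The genes with the closest patterns were sought for the 5 members whose log2 intensity spanned 1 or more, among 531 other genes with such a span. Pearson's r over the 6 arrays is a description here, since all genes share the same arrays and pools. For Reg1 the closest were Mylk3 (0.988), Kctd14 (0.981) and Plb1 (0.979), a phospholipase of the brush border. Reg3a was closest to Dnase1 (0.995), Acvr1c (0.994) and Cyp39a1 (0.993), of which Acvr1c was below the filter threshold in KO on day 5. For Reg3b they were Bcl2l15 (0.964), Ccl28 (0.959) and Ugt2b36 (0.955), and for Reg3g Nusap1 (0.940), Ugt2b36 (0.905) and Ccl28 (0.903). Each of these genes was lower in KO on day 5, by between -1.09 and -2.01 on the log2 scale. Reg4 was closest to Cox6b2 (0.982), Lamb3 (0.977) and Bace2 (0.976), which were higher in KO on day 5 by 1.12, 1.34 and 1.13. These day 5 differences, lower and higher, follow from choosing genes by likeness to the members and are no separate result.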

How the data were processed

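The deposited table gave 1 linear intensity per probe set and array. The authors' tools included RMA and Partek, per the submitters' processing notes, with roles and versions not given there. The log2 of each deposited intensity was taken with no offset and no further scaling. Of 45101 probe sets, 34945 had 1 gene, 932 several and 9160 were unnamed here. Symbols were updated by gene ID to GRCm38.p6 names. Each gene was represented by its brightest probe set, and genes were kept above the 40th percentile of mean log2 (5.28).

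Across all 13042 genes, limma 3.58.1 in R 4.3.3 tested genotype beside day as a factor (2 residual degrees of freedom, prior 3.03) and the product of genotype and centred day (1, prior 4.76), two-sided, adjusted by Benjamini-Hochberg at 0.05. Both fits were tested on simulated data. The members and lists were chosen with earlier results of these data known. Named genes were the members, up to 4 per list by size of the mean difference, list genes past the threshold, and the 3 closest patterns. Single-day values, untested, were compared between settings against the SD over days.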

Additional observations from a re-analysis of the deposited data

Results flagged for a closer look

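The KO minus L/L difference of Reg4 differed between the days by a test of that change, with a slope of 0.43 per day on the log2 scale (limma, adjusted p = 0.0373). For Reg1, Reg2 and Reg3g the sign of the difference on day 3 was opposite to that on days 2 and 5, at 0.232, 0.233 and 0.0209. With 1 pooled array per genotype and day these sign changes were not tested, and that of Reg3g was close to 0.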

How the results depend on the processing

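The 6 Reg genes were recomputed under 13 alternatives over the 3 days and 7 for the slope (Reg2, too dim for the stricter filter, under 12 and 6), and their single-day and between-day differences under 4. Of 118 tested results 113 kept their direction and their side of the threshold. All 216 untested ones stayed within 1 SD of the gene's single-day differences, a wide yardstick of 0.25 (Reg2) to 1.16 (Reg1). Within it some small differences changed sign, such as that of Reg3a in L/L between days 3 and 5. Reg2 turned to 0.0652 without day 2. The slope of Reg4 (0.43) did not pass without the filter (adjusted p = 0.169). That of Reg3a passed with the 60th percentile filter (-0.57, adjusted p = 0.0348), an offset of 32 before log2 (-0.55, adjusted p = 0.0139) and trend and robust eBayes (-0.57, adjusted p = 0.0359). Il18 turned to 0.12 without day 5. No Reg gene passed over the 3 days under any of these alternatives. Over all genes, 3 higher calls became 1 with the mean of all probe sets, 1 without day 2 and 0 without day 3 (limma, no other tool run), and 0 lower calls became 1 without the day term. The 84 rising and 76 falling slopes became 0 and 0 with no filter, 132 and 143 with the stricter filter, 290 and 259 with the offset, 248 and 264 with trend and robust eBayes, and 38 and 25 with days coded by their order. The cause was not tested. Of 360 results of other named genes, 29 lost their call under an alternative. Arrays give no detection call here, so dim probe sets are limited by the filter alone.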
